A study of Homo sapiens with 4 samples.

Results

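The iodothyronine deiodinases DIO1, DIO2 and DIO3 and the nuclear thyroid hormone receptors THRA and THRB were followed in KGN, a human cell line that came from a granulosa cell tumour of the ovary. The genes were chosen by name, as the 5 members of 19775 genes with a probe set of their own, and 14 probe sets carry 1 of these symbols alone (5 for DIO2, 4 for THRA, 3 for THRB and 1 each for DIO1 and DIO3). DIO2 was taken up because of its 8Br-cAMP difference on these same arrays, so its values are a description and no test of them was made. Another 3 probe sets name THRA together with its neighbour NR1D1 and were not used, because their signal cannot be given to either gene.

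The study crossed 2 factors and measured RNA on 4 Affymetrix HG-U133 Plus 2.0 arrays, which hybridise labelled RNA to short probes. All cells were KGN cells grown with serum and transfected, either with a mixture of YAP siRNA and TAZ siRNA, 5 nM of each (siYT), or with 10 nM of a control siRNA (siNC). YAP and TAZ are transcriptional co-activators held back by the Hippo pathway. After 48 h the medium was renewed with 8Br-cAMP (0.5 mM), an analogue of cyclic AMP that enters cells, or without it, for 24 h, which gave the groups siYT+8Br-cAMP, siNC+8Br-cAMP, siYT and siNC. Each group held 1 array, so no difference below has a replicate check, no p-value is given, and the number of arrays limits the precision.

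Thyroxine, the main product of the thyroid gland, is a prohormone. DIO2 removes an iodine atom from its outer ring and yields the active hormone triiodothyronine inside the cell, whereas DIO3 removes an inner-ring iodine and ends the action of both hormones, and DIO1 can do either. All of the deiodinases are selenoproteins, and the active hormone acts through THRA and THRB, which bind DNA together with retinoid X receptors. DIO2 is a known cyclic AMP-responsive gene in brown fat and thyroid, where a cyclic AMP response element in its promoter is bound by CREB-family factors.

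RefSeq promoter windows of the deiodinase genes are shown because the cyclic AMP response element is a feature in which they differ. Each run is the 250 bases before an annotated start site on GRCh38, printed along the gene's strand. Capitals mark the full cyclic AMP response element TGACGTCA, the TEAD motif CATTCC (or GGAATG on the other strand), to which the DNA-binding partners of YAP and TAZ bind, and the thyroid hormone response core AGGTCA (or TGACCT). The windows are chr14:80212179-80212428 (minus strand) and chr14:80211505-80211754 (minus strand) for DIO2, chr1:53893937-53894186 (plus strand) for DIO1 and chr14:101561245-101561494 (plus strand) for DIO3.
DIO2, start at 80212178: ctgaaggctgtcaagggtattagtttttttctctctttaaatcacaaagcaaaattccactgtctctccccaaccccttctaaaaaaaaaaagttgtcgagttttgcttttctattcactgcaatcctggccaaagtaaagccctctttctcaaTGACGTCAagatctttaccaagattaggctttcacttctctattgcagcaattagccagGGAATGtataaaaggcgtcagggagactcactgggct
DIO2, start at 80211504: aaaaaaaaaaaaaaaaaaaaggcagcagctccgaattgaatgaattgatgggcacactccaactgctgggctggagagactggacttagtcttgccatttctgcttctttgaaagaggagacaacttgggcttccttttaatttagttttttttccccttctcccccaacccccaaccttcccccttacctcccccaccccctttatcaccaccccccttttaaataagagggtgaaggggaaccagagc
DIO1: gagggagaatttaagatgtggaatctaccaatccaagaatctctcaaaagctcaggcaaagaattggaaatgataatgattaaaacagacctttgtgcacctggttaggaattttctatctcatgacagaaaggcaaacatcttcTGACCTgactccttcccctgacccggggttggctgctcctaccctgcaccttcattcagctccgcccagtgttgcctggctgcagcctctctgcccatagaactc
DIO3: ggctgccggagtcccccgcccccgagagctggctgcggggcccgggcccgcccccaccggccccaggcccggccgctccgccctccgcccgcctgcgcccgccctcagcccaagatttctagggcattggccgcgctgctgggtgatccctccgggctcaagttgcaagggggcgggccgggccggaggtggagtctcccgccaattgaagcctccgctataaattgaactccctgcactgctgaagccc

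The full cyclic AMP response element lay in 1 DIO2 window, at -96 to -89 from the start, and in none of the windows of the other 4 genes. It was found in 1.65% of 35116 RefSeq promoter windows of this length, read on both strands. The short form TGACG, which overlaps the full element by construction and was not capitalised, occurred once more in that DIO2 window, read as CGTCA at -22 to -18, and 21.2% of all windows hold it. The TEAD motif stood at -37 to -32 in the same DIO2 window, and in 11.9% of all windows. Among the 5 genes the thyroid hormone response core was found only for DIO1, at -105 to -100, and 12.1% of all windows hold it. These matches describe letters, not occupied sites, and which DIO2 start the cells used was not measured here. The upstream gene ends of DIO2 (80231057) and THRA (40062193) had no window, so no motif was sought there. The GC content was 40.8% and 46.4% in the DIO2 windows, 47.6% for DIO1, 73.2% for DIO3, 87.2% for THRA and 72.8% and 65.2% for the 2 THRB starts.

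DIO2 (chr14:80197526-80231057) was much higher with 8Br-cAMP, and its highest reading on all 5 probe sets came from the cells that had also received the YAP and TAZ siRNAs. Its leading probe set, 203700_s_at, read an intensity of 4576 in siYT+8Br-cAMP, 1566 in siNC+8Br-cAMP, 73.4 in siYT cells and 106 in siNC cells. The order was therefore siYT+8Br-cAMP, then siNC+8Br-cAMP, then the cultures without 8Br-cAMP, which lay close to the floor of 62.6. This floor, the median of all values on the 4 arrays, stands for readings too low to be ordered, and lower values were raised to it before log2 was taken. With 8Br-cAMP the intensity was 62.4-fold higher after knockdown (siYT+8Br-cAMP against siYT, log2 5.96) and 14.8-fold higher with control siRNA (siNC+8Br-cAMP against siNC, log2 3.89).

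The other DIO2 probe sets gave the same order of the 8Br-cAMP arrays. The probe set 203699_s_at read 3358 in siYT+8Br-cAMP, 758 in siNC+8Br-cAMP, 43.0 in siYT cells and 82.4 in siNC cells. The probe set 231240_at read 1722 in siYT+8Br-cAMP, 695 in siNC+8Br-cAMP, 68.7 in siYT cells and 68.2 in siNC cells. Both were high on the 8Br-cAMP arrays and near or under the floor on the others. The dimmer 211215_x_at read 611 in siYT+8Br-cAMP, 237 in siNC+8Br-cAMP, 35.5 in siYT cells and 39.5 in siNC cells. The last, 210819_x_at, read 578 in siYT+8Br-cAMP, 133 in siNC+8Br-cAMP, 71.1 in siYT cells and 62.7 in siNC cells. No reading without 8Br-cAMP reached any reading of the same probe set with it.

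**Figure D1:**
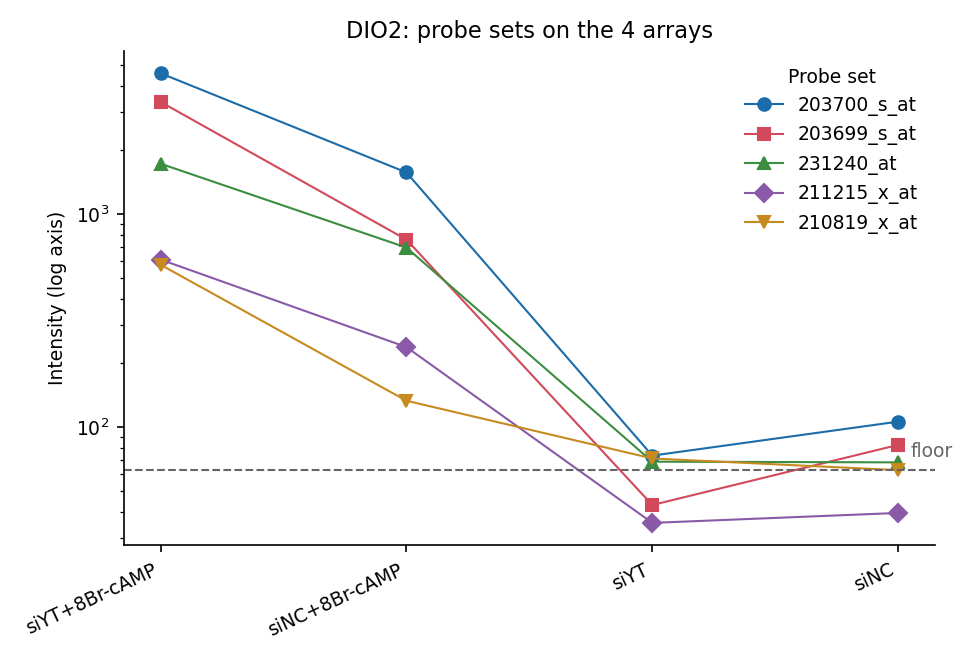
Intensity (log axis) of the 5 DIO2 probe sets on the 4 arrays, with 1 point per probe set and array and the floor of 62.6 as a dashed line. Every probe set is highest in siYT+8Br-cAMP and second in siNC+8Br-cAMP, and the siYT and siNC points lie between 35.5 and 106.

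Over the 5 DIO2 probe sets the 8Br-cAMP difference ran from 8.12-fold to 62.4-fold after knockdown and from 2.12-fold to 14.8-fold with control siRNA. The fold after knockdown was at least 53.6 for 203699_s_at and at least 9.76 for 211215_x_at, and for 211215_x_at the fold with control siRNA was at least 3.79, since the arrays without 8Br-cAMP were below the floor there. The probe sets therefore agree on direction and differ in size, with an SD of 1.36 on the log2 scale after knockdown and 1.15 with control siRNA. As a yardstick, the SD of the log2 difference among a gene's own probe sets was 0.57 after knockdown and 0.44 with control siRNA over 3375 probe sets of 1477 genes with mean levels between 4 and 16 times the floor, the range that holds the leading DIO2, THRA and THRB probe sets. Variation from culture to culture is not part of that spread. Probe sets of a gene are read from the same RNA and are not replicates.

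By the leading probe set, DIO2 had the highest 8Br-cAMP difference after knockdown among the 14427 genes that passed the floor on 1 array or more, and the seventh (rank 7) with control siRNA. A gene is represented there by its probe set with the highest mean. With 8Br-cAMP after knockdown, 14.9% of those genes differed at least 2-fold, 5% being higher and 9.88% lower. With control siRNA 9.56% differed by that much, 4.34% being higher and 5.22% lower. Of the 5 named genes, 3 passed the floor, and DIO2 alone of the 5 was at least 2-fold higher in these comparisons. DIO2 was chosen on these differences, so nothing is read from its count. The rank depends on the treatment of low values. Without any floor DIO2 ranked 6 after knockdown and 224 with control siRNA among 19775 genes, because unfloored ratios of very low readings then come before it. With the mean of all its probe sets it ranked 3 and 17.

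**Figure D2:**
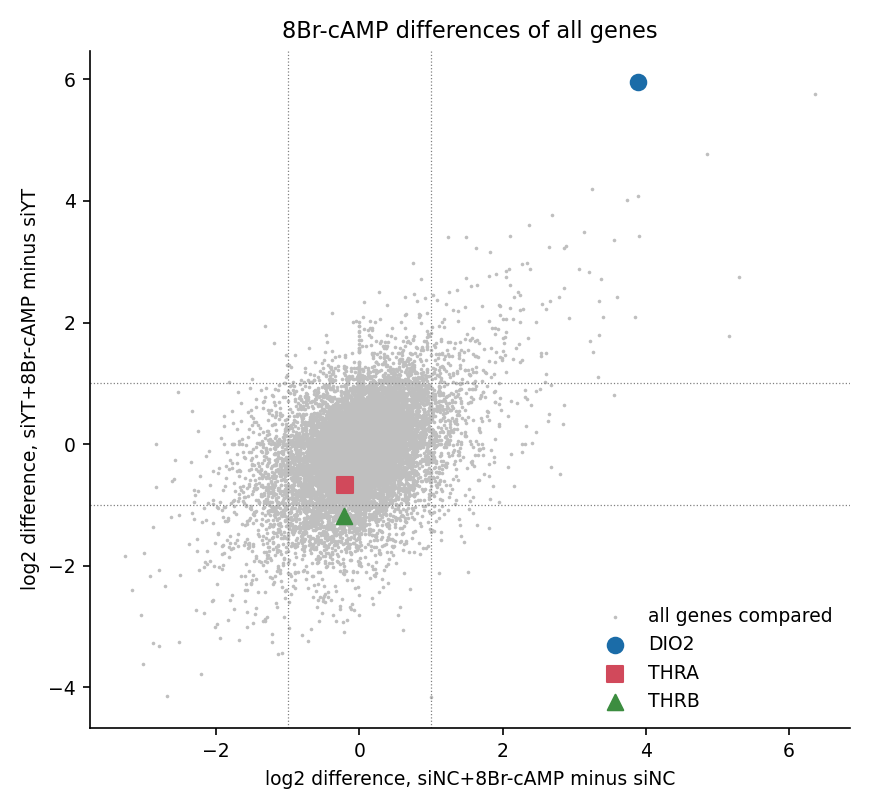
The log2 difference with 8Br-cAMP after knockdown (vertical axis) against that with control siRNA (horizontal axis) for 14427 genes (grey points), with DIO2, THRA and THRB marked and dotted lines at 2-fold. DIO2 lies at 5.96 and 3.89, above every other gene on the vertical axis, and THRA and THRB lie below 0 on both axes.

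The knockdown comparisons asked whether DIO2 RNA depends on YAP and TAZ. Only with 8Br-cAMP were the readings high enough to give a direction. With 8Br-cAMP, DIO2 was 2.92-fold higher in siYT+8Br-cAMP than in siNC+8Br-cAMP (log2 1.55) by the leading probe set, and between 2.48-fold and 4.43-fold higher over all 5. All 5 readings on each of these arrays were above the floor, and the yardstick SD of this comparison was 0.60. In this comparison 16.2% of genes differed at least 2-fold, 6.74% being higher and 9.48% lower, and of the 5 named genes DIO2 alone did. Without 8Br-cAMP the leading probe set was 1.44-fold lower in siYT than in siNC (log2 -0.53), 203699_s_at was at least 1.32-fold lower, and 231240_at (log2 0.01) and 210819_x_at (log2 0.18) were marginally higher. These readings lay under 2 times the floor or below it. The SD between probe sets of a gene was 0.56 at mean levels of 1 to 2 times the floor. It was 0.47 at 4 to 16 times the floor, where the leading probe set lies by its mean over the 4 arrays. With readings this low and the probe sets split, no direction can be read from them. In that comparison 13.3% of genes differed at least 2-fold, 7.3% being higher and 6.05% lower, and none of the 5 named genes did.

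The 8Br-cAMP difference of DIO2 was thus larger after knockdown than with control siRNA, by log2 2.08 for the leading probe set. It was larger by 1.30 for 231240_at, by 1.94 for 210819_x_at and by at least 2.54 for 203699_s_at, where the siYT reading was below the floor. For 211215_x_at both arrays without 8Br-cAMP were below the floor and the size could not be set. The SD of such a difference of differences between probe sets of a gene was 0.66. These sizes include the readings without 8Br-cAMP, which lay near or under the floor. With the floor at the 75th percentile the leading probe set gave 1.55. Every one of these values rests on the siYT+8Br-cAMP array, which stands apart from the other 3. The ACTB probe sets gave a 3′ over 5′ ratio of 1.35 on it, where the others had 1.07 to 1.14, and the GAPDH probe sets 1.13, where the others had 0.89 to 0.96. The part of this difference in the DIO2 values was not tested. Without that array, the 14.8-fold difference between siNC+8Br-cAMP and siNC remains. DIO2-AS1, the antisense gene that overlaps DIO2 (chr14:80211419-80455467), was below the floor on every array, with 6.49 in siYT+8Br-cAMP, 11.8 in siNC+8Br-cAMP, 26.1 in siYT cells and 24.8 in siNC cells (chosen for its position, with its values known).

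DIO1 and DIO3 gave no usable signal under any condition. DIO1 (chr1:53894187-53911086), the deiodinase of liver, kidney and thyroid, read 10.1 in siYT+8Br-cAMP, 29.7 in siNC+8Br-cAMP, 40.4 in siYT cells and 22.2 in siNC cells. DIO3 (chr14:101561495-101563452), the inactivating enzyme, read 57.6 in siYT+8Br-cAMP, 33.7 in siNC+8Br-cAMP, 12.5 in siYT cells and 37.8 in siNC cells. All 8 readings were below the floor, so no fold is given, and each gene rests on 1 probe set. The neighbouring antisense transcript of DIO3, DIO3OS, read by 2 probe sets, was below the floor on every array too.

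The leading probe sets of both receptors were well above the floor and differed less between arrays than that of DIO2. Other receptor probe sets were dimmer, some near or under the floor. THRA (chr17:40062193-40093867) encodes the receptor alpha and, by splicing, a variant that does not bind hormone. Its leading probe set, 35846_at, read 316 in siYT+8Br-cAMP, 319 in siNC+8Br-cAMP, 503 in siYT cells and 366 in siNC cells. The siYT array was the high one and the other 3 lay close together. The log2 differences were -0.67 with 8Br-cAMP after knockdown, -0.20 with control siRNA, -0.01 for knockdown with 8Br-cAMP and 0.46 for knockdown without it, and none reached 2-fold. The probe set 204100_at read 91.1 in siYT+8Br-cAMP, 137 in siNC+8Br-cAMP, 164 in siYT cells and 129 in siNC cells, again with siYT highest. The probe set 1316_at ran only from 91.4 to 104, and 214883_at exceeded the floor on siNC+8Br-cAMP alone (85.4). No THRA probe set reached 2-fold in any of the 4 comparisons.

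The 3′ end of THRA overlaps NR1D1 (chr17:40092793-40100589), a clock repressor gene on the other strand, and the 3 probe sets that name both genes were set aside.

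THRB (chr3:24117153-24495708), the receptor beta, was lowest in siYT+8Br-cAMP on all 3 of its probe sets. Its leading probe set, 228716_at, read 365 in siYT+8Br-cAMP, 573 in siNC+8Br-cAMP, 826 in siYT cells and 665 in siNC cells. With 8Br-cAMP it was 2.26-fold lower after knockdown (log2 -1.18) and 1.16-fold lower with control siRNA (log2 -0.22). The probe set 229657_at read 164 in siYT+8Br-cAMP, 178 in siNC+8Br-cAMP, 226 in siYT cells and 178 in siNC cells, a 1.38-fold lower value after knockdown. The third, 207044_at, read 52.7 in siYT+8Br-cAMP, 76.8 in siNC+8Br-cAMP, 149 in siYT cells and 223 in siNC cells. It was 2.90-fold lower with 8Br-cAMP and control siRNA and at least 2.38-fold lower after knockdown. Of the 3 probe sets, 2 were thus at least 2-fold lower with 8Br-cAMP after knockdown and 1 with control siRNA. Only for 207044_at was the control siRNA difference (log2 -1.54) beyond the yardstick, which was 0.57 at mean levels of 1 to 2 times the floor.

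In the knockdown comparisons with 8Br-cAMP all 3 THRB probe sets were lower, by 1.57-fold for 228716_at, 1.09-fold for 229657_at and at least 1.23-fold for 207044_at. Without it 2 were higher, by 1.24-fold and 1.27-fold, and 207044_at was 1.49-fold lower. None of these reached 2-fold. The 8Br-cAMP difference of THRB after knockdown was the one in which a receptor's leading probe set passed that size, and with the mean over its probe sets it was log2 -0.96 and did not. It lies opposite in direction to DIO2 and uses the same siYT+8Br-cAMP array.

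**Figure D3:**
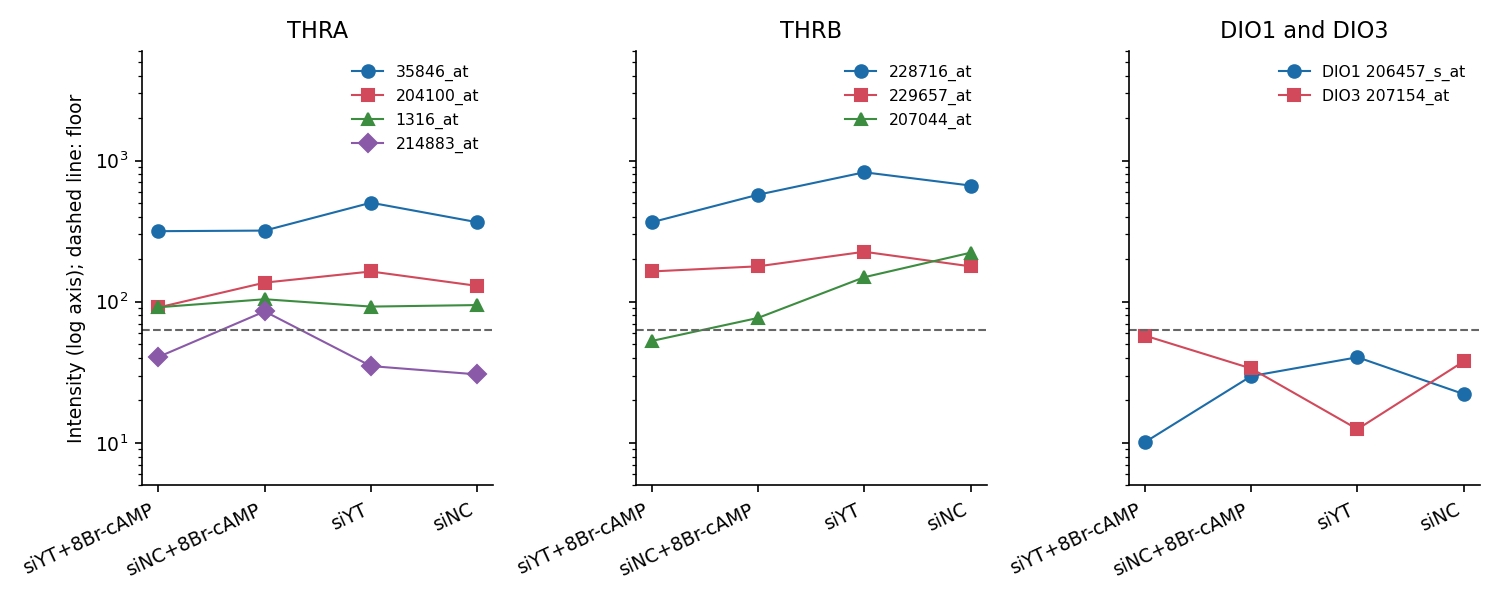
Intensity (log axis, dashed line at the floor of 62.6) of each THRA, THRB, DIO1 and DIO3 probe set on the 4 arrays. The leading THRB probe set runs from 365 in siYT+8Br-cAMP to 826 in siYT, the leading THRA probe set from 316 to 503, and DIO1 and DIO3 stay below the floor.

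The cells were compared with their label. Of 8 measured granulosa cell markers, FOXL2, CYP19A1, INHA, GATA4 and STAR were above the floor, and FSHR, AMHR2 and NR5A1 were below it on all 4 arrays. INHA lay close to the floor without 8Br-cAMP, with 66.1 in siYT cells and 70.5 in siNC cells. Of the 9 measured markers of thyroid follicular cells, another cell type that uses DIO2, 5 were below the floor on every array, among them TG (thyroglobulin) and TSHR, the thyrotropin receptor. The other 4, PAX8, SLC5A5, DUOX2 and FOXE1, were above it on 1 array or more. Over all genes, 14427 of 19775 were above it on 1 array or more, and no cell type is read from the marker counts. DUOX2 and FOXE1 stayed under 2-fold in all comparisons. PAX8, also active in the reproductive tract, read 750 in siYT+8Br-cAMP, 601 in siNC+8Br-cAMP, 577 in siYT cells and 545 in siNC cells by its leading probe set. Its second probe set, 209552_at, read only 115 to 176. The remaining PAX8 probe sets were dimmer, with 214528_s_at and 221990_at below the floor on every array. The iodide carrier gene SLC5A5 read between 52.6 and 164 and thus near the floor. Theca cell markers CYP17A1 and LHCGR were below the floor throughout, and INSL3 read 268 in siYT+8Br-cAMP, 69.3 in siNC+8Br-cAMP, 213 in siYT cells and 156 in siNC cells by its leading probe set. Its other probe sets, 214400_at and 214572_s_at, were below the floor on every array. Both siRNA target genes read lower after knockdown by all 3 of their probe sets, YAP1 by 3.34-fold to 11.5-fold and WWTR1, the gene of TAZ, by 2.17-fold to 6.11-fold.

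Hormone entry into the cell was read from a list of transporters, of which 5 of 9 measured were above the floor. With 8Br-cAMP after knockdown 3 of the 5 were at or above 2-fold and 0 at 2-fold lower, with a median of 1.01 against 0 over all genes, and with control siRNA 1 was higher. Over all genes the shares were 5% higher and 9.88% lower after knockdown, and 4.34% higher with control siRNA. The amino acid carrier SLC7A5, which also carries thyroid hormones and pairs with SLC3A2, read 6434 in siYT+8Br-cAMP, 1305 in siNC+8Br-cAMP, 1857 in siYT cells and 1799 in siNC cells. Only the siYT+8Br-cAMP array was high, 4.93-fold above siNC+8Br-cAMP. SLC3A2, the heavy chain it pairs with, was 2.28-fold higher with 8Br-cAMP after knockdown and level with control siRNA (log2 -0.07). SLC7A8, a related carrier, read 487 in siYT+8Br-cAMP, 867 in siNC+8Br-cAMP, 242 in siYT cells and 321 in siNC cells. It was higher with 8Br-cAMP under both siRNAs (2.02-fold and 2.70-fold), but its second probe set, 202752_x_at, gave log2 0.05 after knockdown.

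Inside the cell, CRYM, a cytosolic protein that binds the active hormone, was the one gene of the binding and conjugation list at 2-fold, among 6 of 11 measured genes above the floor. It read 253 in siYT+8Br-cAMP, 1290 in siNC+8Br-cAMP, 206 in siYT cells and 257 in siNC cells. The siNC+8Br-cAMP array alone was high, so that CRYM was 5.03-fold higher with 8Br-cAMP and control siRNA and 5.11-fold lower in siYT+8Br-cAMP than in siNC+8Br-cAMP. This pattern rests on 1 probe set. The list medians were 0.15 with 8Br-cAMP after knockdown and 0.40 with control siRNA.

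DIO2 protein is short-lived, and ubiquitin addition and removal set its stability. All 6 listed genes of that turnover were above the floor. WSB1, the adaptor of a ubiquitin ligase that recognises DIO2, read 8961 in siYT+8Br-cAMP, 3692 in siNC+8Br-cAMP, 6843 in siYT cells and 3069 in siNC cells. Both knockdown arrays were above both control siRNA arrays, by 2.43-fold with and 2.23-fold without 8Br-cAMP. Its 4 other probe sets were also higher without 8Br-cAMP (log2 0.88 to 1.06), but with it they gave -0.27 to 1.30. USP20, a deubiquitinase of DIO2, was 2.06-fold higher with 8Br-cAMP under control siRNA and 1.32-fold lower with 8Br-cAMP after knockdown. The other 4 genes, MARCHF6, USP33, UBE2G2 and UBE2J1, stayed under 2-fold in all comparisons. Over all genes 6.74% were at least 2-fold higher after knockdown with 8Br-cAMP, 7.3% without it and 4.34% with 8Br-cAMP under control siRNA. Protein was not measured on these arrays.

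Selenocysteine insertion, on which every deiodinase depends, was read from 9 genes, all above the floor. In siYT+8Br-cAMP against siNC+8Br-cAMP 3 were at least 2-fold lower and 1 higher, against 9.48% and 6.74% of all genes. Without 8Br-cAMP 0 were, against 13.3% of all genes either way. SECISBP2, which binds the selenocysteine insertion element of the messenger, read 840 in siYT+8Br-cAMP, 1933 in siNC+8Br-cAMP, 793 in siYT cells and 1500 in siNC cells. Both knockdown arrays were the low ones, by log2 -1.20 with and -0.92 without 8Br-cAMP, and its second probe set gave -1.45 and -1.13. SEPHS2, which makes the selenium donor and is itself a selenoprotein, was 3.31-fold lower in siYT+8Br-cAMP than in siNC+8Br-cAMP, with 247 and 818, and level without 8Br-cAMP, with 832 in siYT cells and 851 in siNC cells. PSTK, a kinase acting on the selenocysteine tRNA, was 3.25-fold lower after knockdown with 8Br-cAMP and 1.88-fold lower without it. SECISBP2L, a paralogue of SECISBP2, was 2.07-fold higher in siYT+8Br-cAMP than in siNC+8Br-cAMP, although its second probe set gave log2 0.08.

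Among 16 other selenoproteins above the floor, of 18 measured, knockdown with 8Br-cAMP gave 3 at 2-fold higher and 0 lower, against 6.74% and 9.48% of all genes. Knockdown without it gave 2 higher and 1 lower, against 7.3% and 6.05% of all genes. GPX3, the secreted glutathione peroxidase, read 6790 in siYT+8Br-cAMP, 2647 in siNC+8Br-cAMP, 5705 in siYT cells and 1962 in siNC cells. SELENOM, a resident of the endoplasmic reticulum, read 9631 in siYT+8Br-cAMP, 4583 in siNC+8Br-cAMP, 6378 in siYT cells and 2895 in siNC cells. For both genes the knockdown arrays were above the control siRNA arrays in each state. The second GPX3 probe set, 214091_s_at, gave log2 0.58 with 8Br-cAMP, under 2-fold, and 1.22 without it. SELENOM rests on 1 probe set. SELENOI, an enzyme of phospholipid synthesis, was 2.19-fold higher after knockdown with 8Br-cAMP by its leading probe set, whereas 1555274_a_at gave log2 -1.72. SELENOO likewise was 2.16-fold higher with 8Br-cAMP after knockdown by its leading probe set and lower (log2 -0.97) by the other. TXNRD2, the mitochondrial thioredoxin reductase, was 2.06-fold lower after knockdown without 8Br-cAMP. The list medians were 0.39 for knockdown with and 0.11 without 8Br-cAMP, against 0 over all genes.

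**Figure D4:**
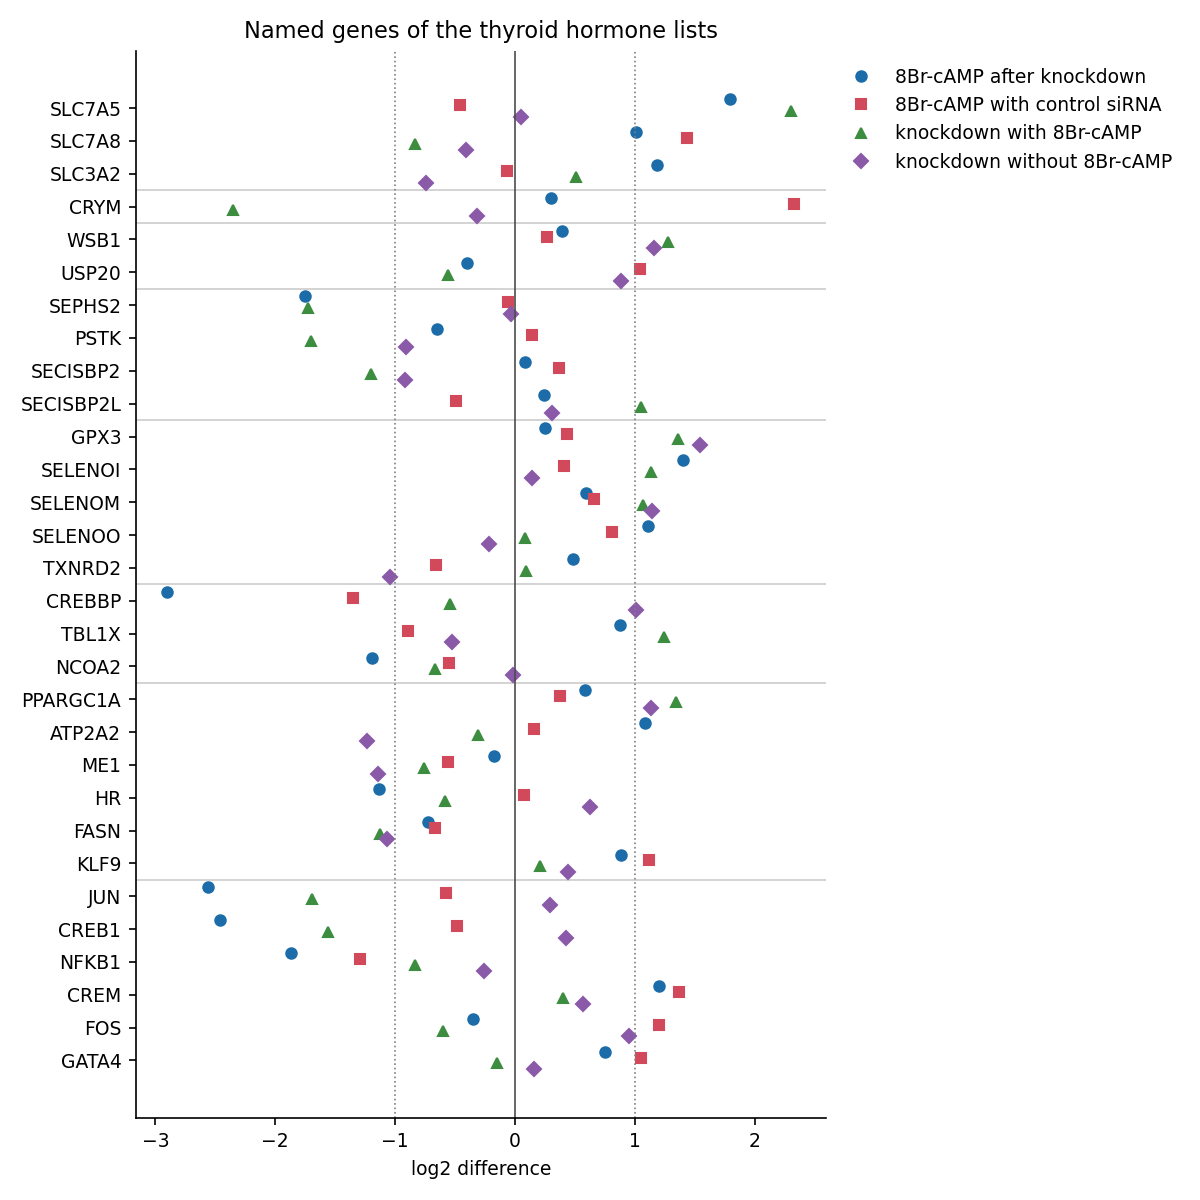
The log2 difference in each of the 4 comparisons for the named genes of the transporter, binding, turnover, selenocysteine, selenoprotein, co-regulator, response and promoter factor lists (from top to bottom, separated by grey lines, dotted lines at 2-fold). All points are leading probe sets. CRYM lies at 2.33 with 8Br-cAMP and control siRNA and at -2.35 for knockdown with 8Br-cAMP. WSB1 and GPX3 lie above 1 in both knockdown comparisons. The FOS differences against siNC, which was below the floor, are lower bounds.

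The receptors work with retinoid X receptors and co-regulators, and all 13 measured genes of that list were above the floor. With 8Br-cAMP after knockdown 2 were at least 2-fold lower and 0 higher (median -0.38), and with control siRNA 1 was lower (median -0.19). These counts are close to the shares of all genes that were lower, 9.88% after knockdown and 5.22% with control siRNA. CREBBP, a histone acetyltransferase, read 94.5 in siYT+8Br-cAMP, 137 in siNC+8Br-cAMP, 706 in siYT cells and 350 in siNC cells by its leading probe set. Both 8Br-cAMP arrays were low there, by 7.47-fold after knockdown and 2.54-fold with control siRNA. Its probe set 211808_s_at was higher, by log2 0.30 after knockdown and at least 0.36 with control siRNA, so the gene as a whole has no settled direction. NCOA2, a steroid receptor co-activator, was 2.29-fold lower with 8Br-cAMP after knockdown and 1.46-fold lower with control siRNA by its leading probe set. Its dimmer probe set 205732_s_at was 1.43-fold and 1.17-fold lower. Near the floor, 205731_s_at was higher after knockdown by at least log2 0.46 and 215605_at lower by at least 0.15. TBL1X, a subunit of the co-repressor complex, was 2.37-fold higher after knockdown with 8Br-cAMP by its leading probe set, and its 4 other probe sets above the floor gave log2 -0.58 to 0.92. RXRA, RXRB and RXRG stayed under 2-fold throughout.

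Genes known to respond to the hormone in other tissues showed differences in both directions. Of 15 measured, 12 were above the floor. With 8Br-cAMP after knockdown, 2 passed 2-fold higher and 1 lower (median 0.52), and with control siRNA 2 higher and 0 lower (median 0.26). Over all genes 5% were higher and 9.88% lower after knockdown, and 4.34% higher and 5.22% lower with control siRNA. After knockdown 1 was higher in each state, while 1 was lower with and 3 without 8Br-cAMP, against 9.48% and 6.05% of all genes lower. KLF9, a transcription factor that responds directly to the hormone, read 1514 in siYT+8Br-cAMP, 1308 in siNC+8Br-cAMP, 818 in siYT cells and 602 in siNC cells. The 8Br-cAMP arrays were the high ones, by 1.85-fold and 2.17-fold, and a second probe set gave log2 1.27 and 0.98. The dim 230636_s_at went the other way after knockdown, with 84.0 in siYT+8Br-cAMP and 100.4 in siYT cells (log2 -0.26), and with control siRNA it was higher by log2 0.86 or more. FASN, the fatty acid synthase, read 166 in siYT+8Br-cAMP, 364 in siNC+8Br-cAMP, 275 in siYT cells and 578 in siNC cells, and so was lower after knockdown by 2.19-fold with and 2.10-fold without 8Br-cAMP. PPARGC1A, a co-activator of mitochondrial genes, was 2.54-fold higher after knockdown with 8Br-cAMP and 2.20-fold higher without it. The malic enzyme ME1 was 1.69-fold lower after knockdown with and 2.21-fold lower without 8Br-cAMP. ATP2A2, a calcium pump, was 2.36-fold lower after knockdown without 8Br-cAMP by its leading probe set and level by another (log2 0.02). The co-repressor HR read 89.3 to 197 and its probe sets disagreed, with log2 -1.14 and 0.62 with 8Br-cAMP after knockdown.

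Transcription factors known to act on the DIO2 promoter were read from 13 measured genes, 12 of them above the floor. With 8Br-cAMP after knockdown 1 was at least 2-fold higher and 3 lower (median -0.27), and with control siRNA 3 were higher and 1 lower (median 0.32). All genes gave 5% higher and 9.88% lower after knockdown, and 4.34% higher and 5.22% lower with control siRNA. CREM, a family member that cyclic AMP induces in many cells, read 2611 in siYT+8Br-cAMP, 1983 in siNC+8Br-cAMP, 1136 in siYT cells and 768 in siNC cells. With 8Br-cAMP it was 2.30-fold higher after knockdown and 2.58-fold higher with control siRNA, although 3 of its 5 other probe sets were lower after knockdown, 228092_at by log2 -0.87. GATA4, which acts on the DIO2 promoter in heart cells, was 1.68-fold higher with 8Br-cAMP after knockdown and 2.08-fold with control siRNA by its leading probe set. Its probe set 1553131_a_at was 1.93-fold and 1.56-fold higher, so under 2-fold in both. The dimmer 1570276_a_at gave log2 -0.18 and 0.43, and 243692_at and 230855_at were near or below the floor. CREB1 read 418 in siYT+8Br-cAMP, 1229 in siNC+8Br-cAMP, 2298 in siYT cells and 1714 in siNC cells by its leading probe set, 5.50-fold lower after knockdown. Its 6 other probe sets gave log2 -0.92 to 0.37 there, so the size rests on that probe set. JUN was lower with 8Br-cAMP after knockdown on all 4 probe sets (log2 -2.56 to -1.19), and NFKB1 was 3.65-fold lower there and 2.45-fold lower with control siRNA. FOS stayed near the floor, with 53.1 to 144. In siYT+8Br-cAMP against siNC+8Br-cAMP 3 of the 12 were at least 2-fold lower and 0 higher, against 9.48% and 6.74% of all genes.

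The genes whose pattern over the 4 arrays lay nearest to that of DIO2 were STAR, HLA-DRA, GALNT15, CASTOR2, PDK4, IGFBP4, HLA-DMB and SFRP1. Likeness was the Euclidean distance between log2 levels centred on each gene's mean over the 4 arrays, and it was 1.26 for STAR and 1.99 for SFRP1, against a median of 5.09 over 14426 genes. STAR, the mitochondrial cholesterol carrier, read 33335 in siYT+8Br-cAMP, 37308 in siNC+8Br-cAMP, 1227 in siYT cells and 1284 in siNC cells. With 8Br-cAMP it was 27.2-fold higher after knockdown and 29.0-fold with control siRNA, where DIO2 was 62.4-fold and 14.8-fold higher. PDK4, a kinase that restrains pyruvate oxidation, read 15930 in siYT+8Br-cAMP, 2925 in siNC+8Br-cAMP, 868 in siYT cells and 306 in siNC cells, and its 8Br-cAMP folds were 18.4 and 9.54. The difference of differences was 2.08 for DIO2 and -0.21 to 1.23 for the 8 genes, with SFRP1, a secreted Wnt antagonist, at the upper end. Only 4 of the 8 genes had a window in the promoter table used here. Of those, 0 held the full cyclic AMP response element and 3 held its short form TGACG, against 1.65% and 21.2% of all windows. With so few windows nothing is read from these counts.

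**Figure D5:**
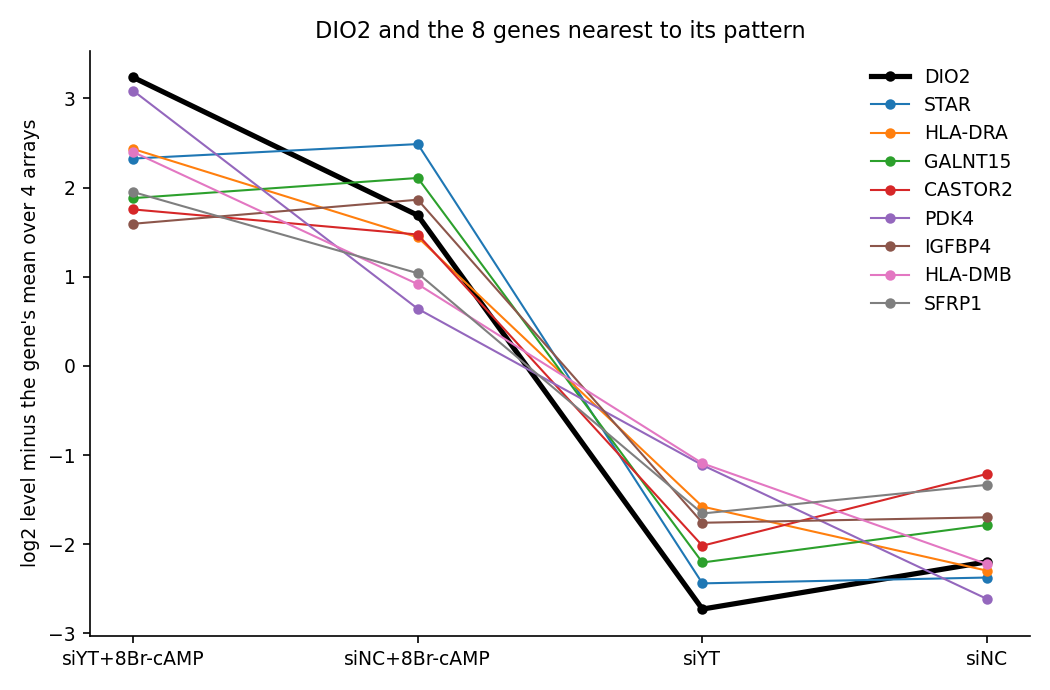
The log2 level of DIO2 (black) and of the 8 genes nearest to it on the 4 arrays, each minus its own mean over the arrays. All 9 genes are high on the 8Br-cAMP arrays, and DIO2 has the widest step between siYT+8Br-cAMP and siYT (5.96).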

How the data were processed

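Per the labels' protocols, RNA was made into biotin-labelled cRNA by a 3′ kit. The authors deposited 1 linear intensity per probe set and array, made by RMA in Affymetrix Expression Console per the submitters' processing notes. RMA output is on a log scale with 1 distribution for all arrays. These values were linear, differed in distribution and had a 2% trimmed mean of 500.1 on every array, so how background was corrected is not known. Array medians ran from 56.9 to 66.3.

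Values under 62.6, the median of the table, were raised to it before log2, with no further normalization. Of 54675 probe sets, 41097 had 1 gene symbol and were used, 1801 had several and 11777 had none here. A gene's leading probe set, the one whose mean log2 level was highest, stands for it. Differences of 2-fold were counted. With 1 array per group no test was made.

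The 5 genes and all gene lists were chosen with earlier results of these data known. Named were all probe sets of the 5 genes, the siRNA targets, up to 6 genes per list with the largest difference among those at 2-fold, and the 8 genes most like DIO2. Other list genes were named with their values known. Alternatives were no floor, a floor at the 75th percentile (388.7), the mean over probe sets, no probe sets with a suffix for several transcripts, cyclic loess (limma 3.58.1) and 1.5-fold. The counting was tested on simulated data.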

Additional observations from a re-analysis of the deposited data

Results flagged for a closer look

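Only DIO2, THRA, THRB and the list genes named for a 2-fold difference were searched for opposite directions. The share of all genes that meet the rule was not counted, so nothing is read from the number found. For 6 of the searched genes the leading probe set differed in opposite directions in the same contrast. Each difference exceeded the SD between probe sets of a gene above 4 times the floor (0.40 to 0.58). At lower levels that SD was larger, and 1 value each of DIO2 and HR did not exceed it there. With 1 array per group none of these differences was tested. DIO2 differed after knockdown by 1.55 on the log2 scale with 8Br-cAMP and by -0.53 without it, where its readings were near the floor. The SD was 0.56 for probe sets with mean levels of 1 to 2 times the floor. SLC7A5 differed with 8Br-cAMP by 1.79 after knockdown and by -0.46 with control siRNA. TBL1X differed after knockdown by 1.24 with and -0.52 without 8Br-cAMP, and with 8Br-cAMP by 0.88 after knockdown and -0.89 with control siRNA. Its other probe sets above the floor were split. By 201867_s_at both pairs were opposite too (0.18 and -0.59, 0.76 and -0.01), and by 213401_s_at the 8Br-cAMP pair was (0.32 and -0.61). The probe set 201869_s_at was higher throughout (0.26 and 0.11, 0.61 and 0.47), and 201868_s_at was lower in both knockdown comparisons (-0.58 and -0.13). HR differed after knockdown by -0.58 with 8Br-cAMP, where the SD at its level was 0.66, and by 0.63 without it. Its second probe set, 220163_s_at, was higher in both states, by at least 1.16 with 8Br-cAMP and 0.51 without it. FOS differed after knockdown by -0.60 with and at least 0.95 without 8Br-cAMP. SLC5A5, below the floor on the siYT+8Br-cAMP and siNC arrays, gave bounds of -1.39 and 1.24 after knockdown with and without 8Br-cAMP, and of -1.24 and 1.39 with 8Br-cAMP after knockdown and with control siRNA.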

How the results depend on the processing

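THRA and THRB moved by less than the spread between probe sets of a gene (SD 0.40 to 0.63) in all 25 alternative values of each, and DIO2 in 16 of 25. The THRB difference with 8Br-cAMP after knockdown was -0.96 with the mean over its probe sets and so under 2-fold there. DIO2 stayed at least 2-fold higher with 8Br-cAMP under both siRNAs, and after knockdown with 8Br-cAMP, in every alternative run. Its 8Br-cAMP difference was 3.56 after knockdown and 2.01 with control siRNA with the floor at the 75th percentile, 4.53 and 2.69 with the mean over its probe sets, and 4.65 and 3.35 without shared probe sets. Its knockdown difference without 8Br-cAMP was 0 with that higher floor and 0.0107 without shared probe sets. Its difference of differences was 1.55 with that higher floor and 1.30 without shared probe sets. The higher floor raises the readings without 8Br-cAMP by construction, and the other causes were not tested. DIO1 and DIO3 had no value with any floor.

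Counts of genes at 2-fold, 2147 (8Br-cAMP after knockdown), 1379 (8Br-cAMP, control siRNA), 2340 (knockdown with 8Br-cAMP) and 1926 (knockdown without it), were, in that order, 6879, 5597, 7031 and 5941 without a floor, 1023, 635, 1096 and 1013 with the higher floor, 1164, 801, 1320 and 1199 with the mean over probe sets and 5245, 3860, 5457 and 4726 at 1.5-fold. Of the genes at 2-fold with 8Br-cAMP after knockdown, 33.6% were higher, against 45.3% without a floor and 42.7% after cyclic loess. No paired analysis was possible because each group has 1 array. Without the siYT+8Br-cAMP array the comparisons of siNC+8Br-cAMP with siNC and of siYT with siNC are left.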
